A study of Danio rerio with 12 samples.

Results

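The 10 purine synthesis enzymes described here are ppat, gart, pfas, paics, adsl, atic, impdh1b, impdh2, gmps and hprt1. They were taken by name from the 14581 genes of the expression table, with earlier results of these data known, and each was found once. RNA had been sequenced from EGFP-positive neuroblastoma cells sorted out of zebrafish tumours, with 4 libraries from tumours of MYCN transgenic fish and 8 from tumours of MYC transgenic fish. Both groups carried EGFP in the sorted cells, and no normal tissue or tumour without a transgene was among the 12 libraries. The labels give neither the promoter behind the transgenes nor the age of the fish, and they do not say whether each library came from a separate fish. The p-values below therefore measure the spread between these libraries, which may be technical. The values are FPKM, fragments scaled to transcript length and library depth, so levels of different genes can be set side by side.

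Purine nucleotides are built step by step on a ribose phosphate supplied by PRPP, up to inosine monophosphate (IMP). The PRPP comes from the prps enzymes, the nitrogen from glutamine, glycine and aspartate, and carbon from formyl-folate. IMP is then turned into AMP through adss and adsl, or into GMP through IMP dehydrogenase and gmps. Cells can also rebuild IMP and GMP from free bases by salvage, which is the role of hprt1, so hprt1 belongs to the pathway but not to the synthesis from small precursors. In mammalian cells many genes of the pathway are known targets of MYC proteins. In zebrafish, loss of gart or paics is known to impair pigment cells and eye growth. Purines are also the material of the reflective iridophores and a precursor of yellow pteridines.

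All 10 enzymes were expressed in every library, and none of them passed the test between MYC and MYCN tumours. By limma, with Benjamini-Hochberg adjustment over the 9606 genes tested and a threshold of 0.05, 0 of 10 were called, where 13.4% of all genes tested were called in either direction. The exact permutation test over the libraries also called 0 of 10, against 9.62% of all genes. At an unadjusted p under 0.05, limma marked 3 of the 10, adsl, atic and impdh2, all with the higher mean in MYC; of all genes 28.6% were marked at that level, 12.9% as higher. The median log2 fold change of the 10 was 0.12, beside -0.05 over all genes tested, and with libraries scaled to a common sum it was -0.06, beside -0.22. In the unscaled values 9 of 10 lay within 0.5 of 0, as did 64.4% of all genes. For none of the 10 were the MYC and MYCN values free of overlap, which was the case for 9.33% of all genes. In bulk samples such as these, fewer cells of a type and less RNA per cell cannot be told apart.

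The summed level of the 10 enzymes was 787 ± 60.9 FPKM in MYCN (SD, n = 4) and 875 ± 176 FPKM in MYC (SD, n = 8). As a share of all FPKM in a library this was 0.107 ± 0.0138% in MYCN and 0.104 ± 0.0209% in MYC. The ranges of the share, 0.0893% to 0.119% in MYCN and 0.0820% to 0.141% in MYC, overlapped, with the MYCN range inside that of MYC.

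**Figure D1:**
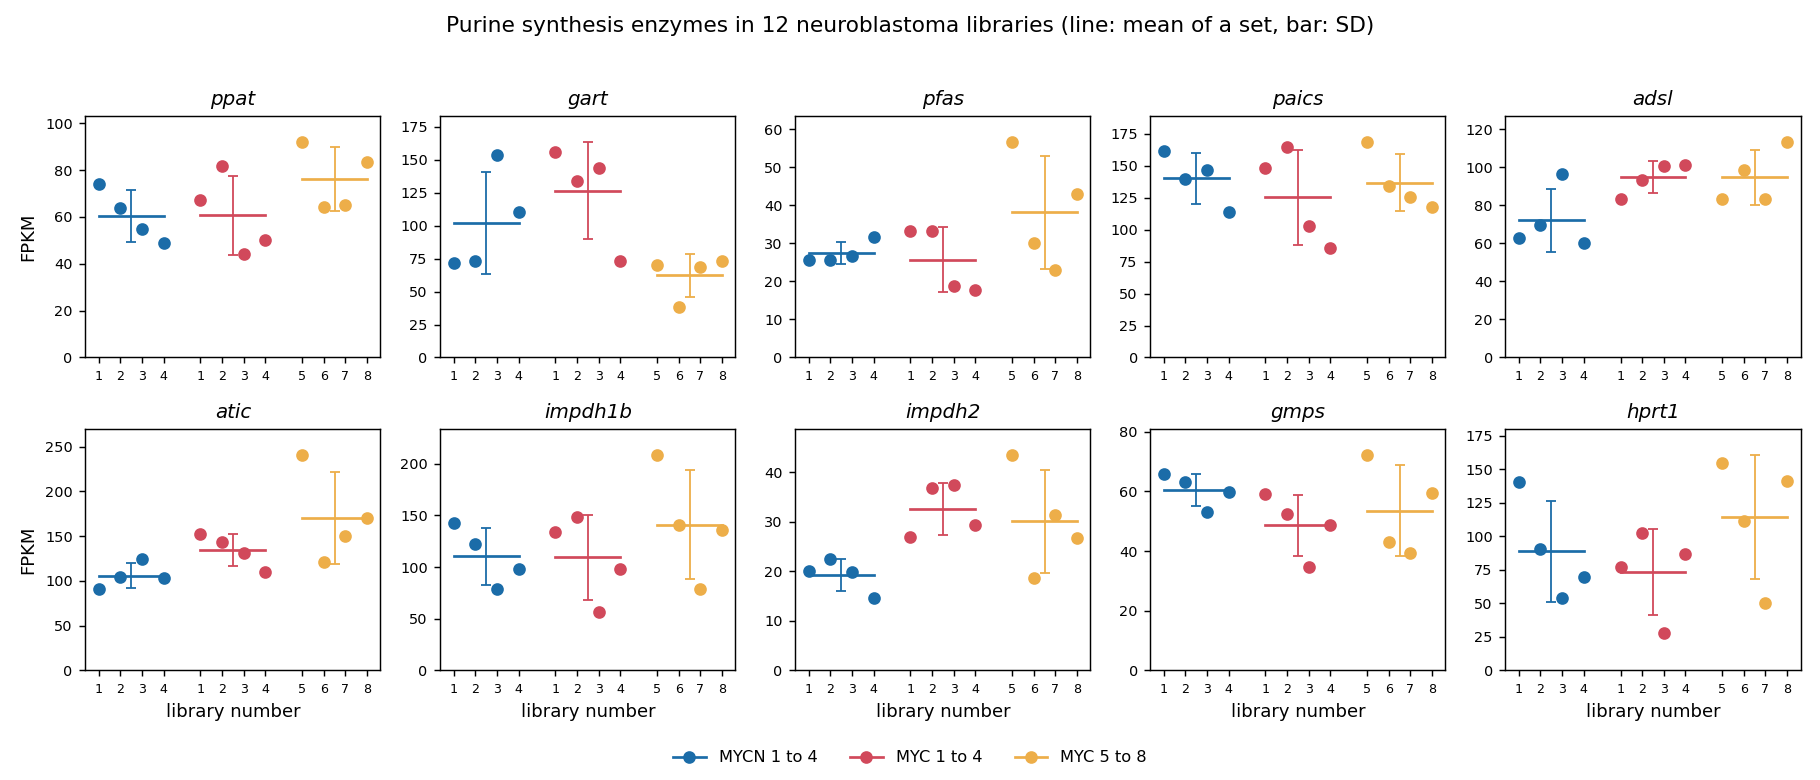
FPKM of the 10 enzymes in each of the 12 libraries, grouped as MYCN, MYC 1 to 4 and MYC 5 to 8, with the mean and SD of each set (n = 4 per set). The point of MYC 5 at 241 FPKM stands alone for atic, and gart is lower in MYC 5 to 8 than in most other libraries.

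The pathway opens with ppat, the amidotransferase that commits PRPP to purine synthesis. Its level was 74.1, 63.7, 54.9 and 48.8 FPKM in MYCN 1 to 4, and in MYC it ran from 44.3 over a median of 66.1 to 92.0 FPKM. The lowest and the highest value were both in MYC libraries. On the log2 scale MYC minus MYCN was 0.16 ± 0.21 (SE; adjusted p = 0.679 by limma), with a 95% interval from -0.30 to 0.62.

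The multifunctional enzyme gart catalyses several of the following steps, among them the first use of formyl-folate. It measured 71.5, 73.1, 154 and 110.3 FPKM in MYCN 1 to 4, and from 38.3 over a median of 73.2 to 156 FPKM in MYC. High and low libraries occurred in both groups. MYC minus MYCN on the log2 scale was -0.17 ± 0.35 (SE; adjusted p = 0.796 by limma), with a 95% interval from -0.93 to 0.58, among the widest of the 10.

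The next enzyme, pfas, which adds a glutamine nitrogen, was among the lowest of the 10, at 25.6, 25.7, 26.8 and 31.8 FPKM in MYCN 1 to 4 and from 17.8 over a median of 31.7 to 56.7 FPKM in MYC. The MYCN values were close together and the MYC values lay on both sides of them, 4 above the highest and 3 below the lowest. Its log2 fold change was 0.12 ± 0.28 (SE; adjusted p = 0.817 by limma).

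The bifunctional enzyme paics, which adds carbon dioxide and aspartate, measured 161, 139.9, 147 and 113 FPKM in MYCN 1 to 4, and from 86.0 over a median of 129.9 to 169 FPKM in MYC. Of the MYC libraries 2 were above the MYCN range and 2 below it. The log2 fold change was -0.12 ± 0.20 (SE; adjusted p = 0.753 by limma), with a 95% interval from -0.55 to 0.31. In the reference gene table of zebrafish (GRCz12tu), paics and ppat are direct neighbours on the chromosome. Their ratio within a library, ppat over paics, was 0.374 to 0.460 in MYCN and 0.432 to 0.708 in MYC, with 6 of 8 MYC libraries above the MYCN range (exact permutation test, two-sided p = 0.0505, adjusted over 45 ratios 0.245).

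The lyase adsl serves both the late part of IMP synthesis and the step from IMP to AMP. It measured 62.6, 69.5, 96.3 and 60.1 FPKM in MYCN 1 to 4, and from 83.1 over a median of 96.1 to 113 FPKM in MYC. All 8 MYC libraries were above the MYCN mean of 72.1 FPKM, but MYCN 3 reached into the MYC range. On the log2 scale MYC minus MYCN was 0.40 ± 0.17 (SE), with an unadjusted p of 0.0315 and an adjusted p of 0.131 by limma. Without MYCN 3 the adjusted p was 0.0493, and with limma's weights for library quality it was 0.0256. In the other 24 of 26 settings and subsets of libraries adsl was not called. By limma its adjusted p was 0.564 with a common sum, 0.339 without MYCN 4 and 0.299 without MYCN 1.

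The enzyme atic carries out the last steps to IMP, including the final formyl transfer. It was at 91.1, 104, 125 and 103 FPKM in MYCN 1 to 4, and from 110.5 over a median of 147 to 241 FPKM in MYC. Of the MYC libraries 6 of 8 were above the highest MYCN library. MYC minus MYCN on the log2 scale was 0.50 ± 0.20 (SE), with an unadjusted p of 0.0273 and an adjusted p of 0.120 by limma. The adjusted p ran from 0.0510 to 0.388 over 26 other settings and subsets of libraries, so no setting called it.

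IMP dehydrogenase, the rate-limiting enzyme of the branch to GTP, is encoded by several genes, and the members hold impdh1b and impdh2. The more abundant was impdh1b, at 142, 122, 79.2 and 97.9 FPKM in MYCN 1 to 4 and from 56.6 over a median of 135 to 208 FPKM in MYC. MYC values lay on both sides of the MYCN range, with 2 above and 2 below it, and the log2 fold change was 0.12 ± 0.30 (SE; adjusted p = 0.841 by limma).

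The paralogue impdh2 had the largest log2 fold change of the 10. It measured 20.1, 22.5, 19.8 and 14.7 FPKM in MYCN 1 to 4, and 26.9, 36.7, 37.4, 29.3, 43.5, 18.7, 31.4 and 26.7 FPKM in MYC 1 to 8. Of the MYC libraries 7 of 8 were above every MYCN library, and MYC 6 was inside the MYCN range. Mean levels were 19.3 ± 3.29 FPKM in MYCN (SD, n = 4) and 31.3 ± 7.73 FPKM in MYC (SD, n = 8). The log2 fold change was 0.65 ± 0.22 (SE; 95% interval 0.18 to 1.11), with an unadjusted p of 0.00980 and an adjusted p of 0.0641 by limma. In MYCN 1 to 4 and MYC 1 to 4 alone, fitted with a replicate block, it was 0.73 ± 0.16 (SE; adjusted p = 0.0201), and without the block the same 8 libraries gave an adjusted p of 0.0692. With the block impdh2 was the only member called of 10, where 23.5% of all genes were called. Without MYC 6 the adjusted p over the remaining libraries was 0.0262. In the other 24 of 26 settings and subsets of libraries impdh2 was not called. Its adjusted p was 0.0857 by exact permutation, and by limma 0.202 with a common sum and 0.212 without MYCN 4.

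As a share of the summed FPKM of the IMP dehydrogenase genes impdh1a, impdh1b and impdh2, impdh2 held 10.6% to 17.1% in MYCN and 10.7% to 35.0% in MYC. The share of impdh1b was 68.4% to 74.6% in MYCN and 52.9% to 80.4% in MYC, the largest in each library. The handling of reads shared between such paralogues was not given in the sources used here, so the split between them is uncertain.

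The enzyme gmps, which turns xanthosine monophosphate into GMP, measured 65.8, 63.1, 53.2 and 59.9 FPKM in MYCN 1 to 4, and from 34.5 over a median of 50.4 to 72.2 FPKM in MYC. Of the MYC libraries 5 of 8 were below the lowest MYCN library and MYC 5 was above the highest. On the log2 scale MYC minus MYCN was -0.27 ± 0.20 (SE; adjusted p = 0.403 by limma). It had the most negative fold change of the 10, while impdh2, which precedes it in the branch to GTP, had the most positive. The more abundant gene of that preceding step, impdh1b, had a log2 fold change of 0.12.

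The salvage enzyme hprt1, which joins hypoxanthine or guanine to PRPP, was the most variable. It measured 140.4, 90.8, 53.9 and 70.1 FPKM in MYCN 1 to 4, and 77.4, 102, 27.7, 86.8, 155, 112, 50.3 and 141 FPKM in MYC 1 to 8. Its lowest values were in MYC 3, MYC 7 and MYCN 3, so both groups held low and high libraries. MYC minus MYCN on the log2 scale was 0.00 ± 0.40 (SE; adjusted p = 0.997 by limma), and its 95% interval from -0.86 to 0.87 was wide enough to hold changes larger than any seen among the 10.

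**Figure D2:**
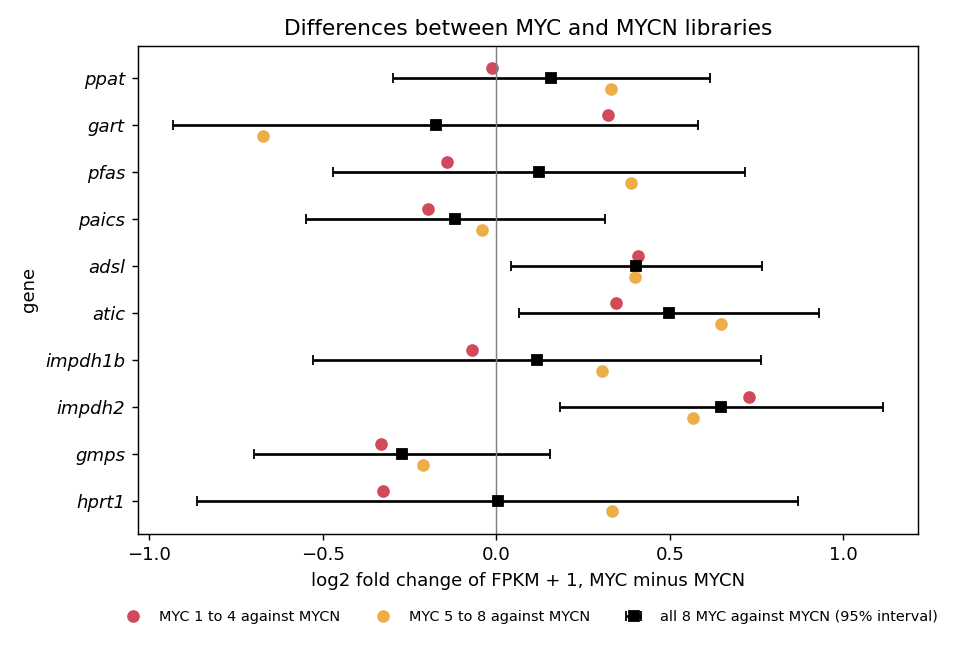
Log2 fold change of each enzyme, MYC minus MYCN, on log2(FPKM + 1), with its 95% interval from limma (4 MYCN and 8 MYC libraries); the smaller points are MYC 1 to 4 and MYC 5 to 8 each against MYCN. The intervals of adsl, atic and impdh2 lie above 0 before adjustment, and the points of the MYC sets lie on opposite sides of 0 for ppat, gart, pfas, impdh1b and hprt1, gart being the one higher in MYC 1 to 4.

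In level the 10 enzymes ran from a mean over all 12 libraries of 137 FPKM for atic and 134 FPKM for paics down to 30.5 FPKM for pfas and 27.3 FPKM for impdh2. Between them came impdh1b (120.2 FPKM), gart (97.0 FPKM), hprt1 (92.3 FPKM), adsl (87.1 FPKM), ppat (65.8 FPKM) and gmps (54.2 FPKM). Over the 12 libraries the only neighbours in this order whose log2 ratio exceeded its SD between libraries were gmps and pfas, with gmps higher in 12 of 12. Within MYCN, paics differed from impdh1b in this way, ppat from pfas, and pfas from impdh2, each in 4 of 4 libraries. Within MYC, ppat differed from gmps and gmps from pfas, each in 8 of 8 libraries. For the remaining neighbours the mean log2 ratio did not exceed its SD, a rule that is not a test. Some of them still kept their order in most libraries. Over all 12, ppat was above gmps in 11 and adsl above ppat in 10. Enzymes further apart in the order could still be separate: adsl was at 0.584 to 0.774 of the level of atic in MYCN and at 0.345 to 0.913 in MYC, below it in every library. Among the 9606 genes tested, paics stood at percentiles 88.9 to 93.4 of level over the libraries, and impdh2 at 52.3 to 78.8. The highest library exceeded the lowest by 1.88 times for adsl and by 5.58 times for hprt1, with gart at 4.07 times and the other enzymes between adsl and gart.

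MYC 5 held the highest value of 8 of the 10 enzymes, the exceptions being gart and adsl, and MYC 3 the lowest value of 4. When all libraries were scaled to a common sum of FPKM, MYC 5 held the highest value of 1 enzyme, while MYC 8 held that of 4 and MYC 3 the lowest of 6. The summed FPKM per library was 609892 to 866900 in MYCN and 567331 to 1058303 in MYC, with MYC 5 at 1020232. The position of MYC 5 at the top therefore depended on the scaling.

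**Figure D3:**
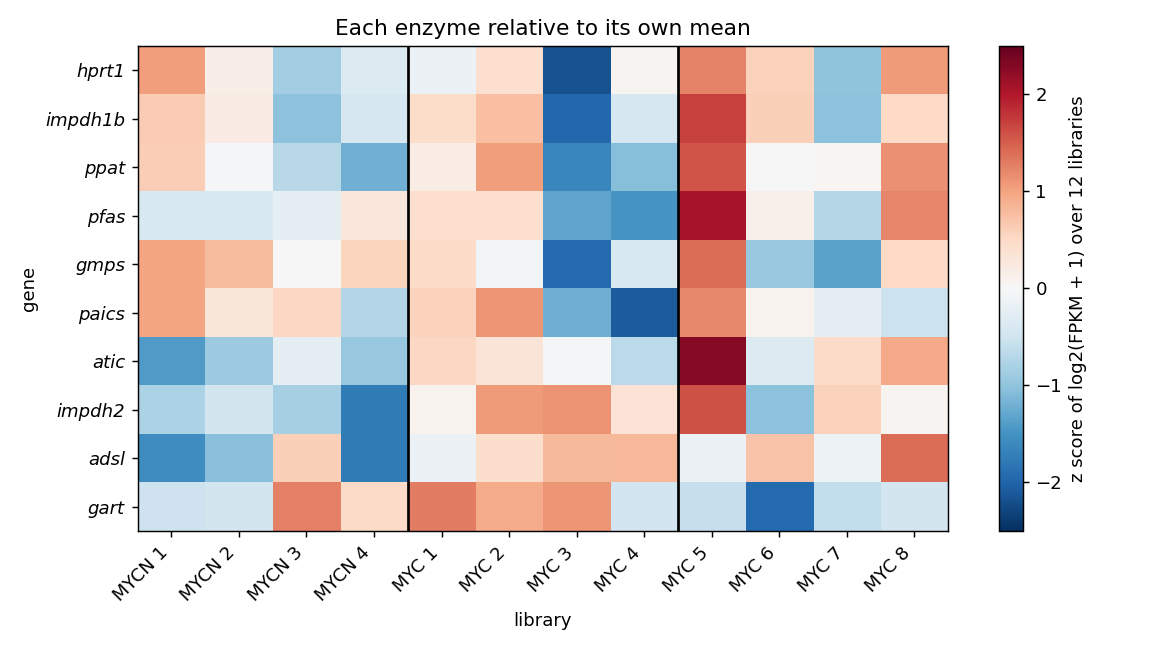
Level of each enzyme in each library as a z score of log2(FPKM + 1) over the 12 libraries. The genes are not in pathway order, with hprt1 at the top and gart at the bottom. MYC 5 is high for most enzymes and MYC 3 low for ppat, impdh1b, gmps and hprt1, while the gart line follows another pattern.

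The MYC libraries were also compared as MYC 1 to 4 and MYC 5 to 8, since 47 genes were at 0 in all of MYC 5 to 8 and above 0 in all of MYC 1 to 4, and 8 genes the other way round. The labels give only the numbers, so these are sets of libraries and not conditions. By limma 0 of 10 enzymes were called between the MYC sets, where 0.552% of all genes were called. At an unadjusted p under 0.05 there was 1, gart, beside 9.14% of all genes; no other tool was run on this contrast. Gart was at 156, 134, 144 and 73.0 FPKM in MYC 1 to 4 and at 69.8, 38.3, 68.3 and 73.4 FPKM in MYC 5 to 8. Of the first set 3 libraries were well above all of the second, and MYC 4 was among the values of the second. The means were 127 ± 36.9 FPKM and 62.4 ± 16.2 FPKM (SD, n = 4 each), and the log2 difference, MYC 5 to 8 minus MYC 1 to 4, was -0.99 ± 0.32 (SE; unadjusted p = 0.00839, adjusted p = 0.254 by limma).

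Against MYCN, gart had a log2 fold change of 0.32 in MYC 1 to 4 and of -0.67 in MYC 5 to 8, which share the same MYCN libraries, and neither passed. The ratio of atic to gart within a library, the enzymes of the formyl transfers, was 0.810 to 1.42 in MYCN, 0.915 to 1.51 in MYC 1 to 4 and 2.198 to 3.45 in MYC 5 to 8, so the last set did not overlap with the others. That ratio was looked at after the values of gart were seen, and it was given no test of its own between the sets. How many other ratios, among the enzymes or among all genes, separated the sets in this way was not counted. The separation therefore cannot be read as particular to these enzymes. With MYC 1 to 4 against MYCN 0 of 10 enzymes were called by limma (11.3% of all genes), and 1, impdh2, had an unadjusted p under 0.05, as did 24.8% of all genes. With MYC 5 to 8 against MYCN 0 of 10 were called (10.1%), and 2, atic and impdh2, had an unadjusted p under 0.05, as did 24.6% of all genes. The median log2 fold change of the 10 was -0.04 and 0.33 in these comparisons, beside -0.09 and -0.01 over all genes.

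Ratios between enzymes of the same library do not depend on the scaling of that library. Of the 45 ratios among the 10 enzymes, chosen as a measure after the values were seen, 7 had an unadjusted exact permutation p under 0.05 between MYC and MYCN and 0 passed after adjustment over the 45. The smallest p this test allows with 4 and 8 libraries is 0.00202. Even at that p a single ratio could not pass alone after adjustment over the 45, so the count of 0 decides little. The ratio of impdh2 to gmps, consecutive enzymes of the branch to GTP, was 0.245 to 0.373 in MYCN and 0.434 to 1.08 in MYC. All 8 MYC libraries were thus above all 4 MYCN libraries, with a log2 difference of 0.95 (exact permutation test, two-sided p = 0.00606, adjusted 0.114). Impdh2 and gmps were the enzymes with the most positive and most negative fold change, and ratios among other genes were not tested. Ratios that share an enzyme are not separate results. The ratio of impdh1b to gmps differed by 0.40 on the log2 scale (exact permutation p = 0.0545, adjusted 0.245), with overlap between the groups. The ratio of atic to gmps differed by 0.78 on the log2 scale (exact permutation p = 0.00404, adjusted 0.114), and that of ppat to gmps by 0.44 (exact permutation p = 0.0101, adjusted 0.114). The ratio of paics to atic was lower in MYC by a log2 difference of -0.62 (exact permutation p = 0.00808, adjusted 0.114).

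Over the 12 libraries the levels of the enzymes varied together only in part. Of the 45 pairs, 33 had a positive Pearson correlation of log2(FPKM + 1), 9 had an adjusted permutation p under 0.05 by Pearson and 1 by both Pearson and Spearman. That pair was impdh1b and hprt1, with r = 0.930 (permutation p = 2e-05, adjusted over 45 pairs 0.0009) and rho = 0.902 (permutation p = 0.0002, adjusted 0.009). Without the 2 libraries farthest from the median of impdh1b r was 0.863, within the 8 MYC libraries it was 0.930, and with a common sum it was 0.971. The high correlation was not particular to the pair: impdh1b was at rank 38 among the 9605 other genes for hprt1, and hprt1 at rank 143 for impdh1b.

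The pathway's first enzyme, ppat, was closest among the 10 to impdh1b, with r = 0.843 (permutation p = 0.0004, adjusted 0.009) and rho = 0.797 (permutation p = 0.00306, adjusted 0.0689), and r = 0.683 without the 2 farthest libraries. The neighbouring genes ppat and paics had r = 0.713 (permutation p = 0.0092, adjusted 0.046) and rho = 0.713 (permutation p = 0.0117, adjusted 0.105), and r = 0.575 without the 2 farthest libraries. The enzyme gart stood apart, since its closest member was impdh2 with r = 0.144, at rank 2694 of 9605 genes. Libraries share a depth and a scaling across all their genes, and these correlations hold that shared part as well.

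The genes whose pattern was most like that of each enzyme, by Pearson r of log2(FPKM + 1) over the 12 libraries, are given as a description. For ppat they were alg1 (0.942), drg1 (0.933) and rnmt (0.931), and for paics gar1 (0.941), naa20 (0.934) and cdc16 (0.904). For gart they were setdb2 (0.910), cmtr1 (0.895) and tfdp1b (0.890), and for pfas tnpo3 (0.948), cnot2 (0.946) and mut (0.920). For adsl they were txn (0.898), cox6b1 (0.892) and tank (0.884), and for atic trpm4c (0.934), dlst (0.915) and fam20a (0.911). In the branch to GTP they were ufm1 (0.977), agk (0.976) and psme3 (0.974) for impdh1b, sssca1 (0.905), fam203a (0.874) and foxn2b (0.865) for impdh2, and nr2f6a (0.951), azi2 (0.941) and peo1 (0.937) for gmps. For hprt1 they were sptlc1 (0.978), eaf2 (0.971) and tia1l (0.958). None of these 30 places was held by another of the 10 enzymes, and no gene was named for more than 1 of them.

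Of 92 other genes listed for the pathway, 78 were in the table and 64 were tested. Of these 4 rose in MYC (6.25%, beside 5.77% of all genes tested), 2 fell (3.12%, beside 7.63%) and 58 did not pass, and their median log2 fold change was 0.01. The exact permutation test called 3 of them, uox and shmt1 as higher and slc46a1 as lower. The shares were near those of all genes for the genes that rose and below them for those that fell. In the 8 libraries that share numbers, with the number as a block, 8 rose and 6 fell (10.2% and 13.3% of all genes).

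In the supply of PRPP none of 3 tested genes passed, and none had an unadjusted p under 0.05 by limma. The synthetase gene prps1a was the most abundant, with 167 ± 29.3 FPKM (MYCN) and 172 ± 58.3 FPKM (MYC) (SD, n = 4 and 8). The log2 fold change was -0.28 for its paralogue prps1b (adjusted p = 0.576 by limma) and 0.14 for the associated protein prpsap2 (adjusted p = 0.805 by limma); prpsap1 was listed at 0 in all 12 libraries. Among the 5 genes of the branch to AMP and the paralogues of the enzymes none passed, with 1 at an unadjusted p under 0.05 (adss) and a median of -0.33. The adenylosuccinate synthases adss (log2 fold change -0.57, adjusted p = 0.116 by limma, 0.0491 without MYCN 2) and adssl (-0.33, adjusted p = 0.268) had the smallest p there. The second of them, adssl, was the abundant one, with 109 ± 22.1 FPKM (MYCN) and 86.4 ± 15.7 FPKM (MYC).

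Among the 14 tested genes of salvage and nucleoside conversion 1 rose, the purine nucleoside phosphorylase pnp5b, which frees bases from nucleosides. It measured 7.45, 6.21, 31.3 and 12.3 FPKM in MYCN 1 to 4, and from 17.1 over a median of 44.5 to 62.0 FPKM in MYC. The groups overlapped through MYCN 3, and 5 of 8 MYC libraries were above all MYCN libraries. On the log2 scale MYC minus MYCN was 1.58 ± 0.42 (SE; adjusted p = 0.0230 by limma). It was no longer called without MYCN 1 (adjusted p = 0.0831), MYCN 2 (0.0901) or MYCN 4 (0.0624), with a common sum (0.0678), by the exact permutation test (0.0704), in MYC 1 to 4 alone (0.0814) or in the 8 libraries that share numbers, without the block (0.111). The adenosine deaminase ada was at a log2 difference of 1.18 ± 0.41 (SE; adjusted p = 0.0706 by limma). It was called in 6 of 26 other settings, with library weights (adjusted p = 0.0148), quantile normalisation (0.0259) and median-ratio scaling (0.0303), and without MYCN 2 (0.0406), MYC 3 (0.0227) or MYC 7 (0.0467).

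The list of kinases that turn purine nucleotides into di- and triphosphates also held the pyrophosphatase itpa. None of its 11 tested genes passed, with 1 at an unadjusted p under 0.05 (ak3) and a median of -0.02. The smallest p were those of ak3, an adenylate kinase family member (log2 fold change 1.55, adjusted p = 0.0775 by limma), and of the nucleoside diphosphate kinase family member nme6 (0.50, adjusted p = 0.294). Of these, ak3 was called in 6 of 26 other settings, with the replicate block (adjusted p = 0.00354), library weights (0.0185), quantile normalisation (0.0231) and median-ratio scaling (0.0297), and without MYC 3 (0.0391) or MYC 7 (0.0275).

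Urate oxidase, encoded by uox, oxidises uric acid, the end product of the purine ring in animals that lack it. In purine breakdown 1 of 6 tested genes rose, which was uox. Its level was 0.0438, 0.0243, 0.0273 and 0.0937 FPKM in MYCN 1 to 4, and 12.5, 10.8, 4.33, 4.76, 25.8, 7.13, 10.5 and 7.03 FPKM in MYC 1 to 8. The groups were far apart, with all MYCN libraries under 0.1 FPKM and all MYC libraries above 4 FPKM. On the log2(FPKM + 1) scale, which understates ratios of genes near 0, the fold change was 3.25 ± 0.36 (SE; adjusted p = 6.39e-05 by limma). It was called in each of the 26 other settings and subsets of libraries, as was shmt1 below. The nucleotidase nt5c3a, which was on this list but is not specific to purines, had a log2 fold change of 0.43 (adjusted p = 0.250 by limma).

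Formyl-folate supply held 1 gene that rose and 1 that fell among 11 tested. The cytosolic serine hydroxymethyltransferase shmt1, which loads carbon onto folate, measured 11.4, 14.1, 15.7 and 9.05 FPKM in MYCN 1 to 4, and 46.3, 52.1, 29.3, 22.3, 59.6, 30.0, 32.2 and 48.9 FPKM in MYC 1 to 8. All MYC libraries were above all MYCN libraries, and the log2 fold change was 1.56 ± 0.26 (SE; adjusted p = 0.00186 by limma). The proton-coupled folate transporter slc46a1 was low, at 4.71, 3.14, 3.22 and 3.88 FPKM in MYCN 1 to 4 and from 0.306 over a median of 1.24 to 2.26 FPKM in MYC. All MYC libraries were below all MYCN libraries, and the log2 fold change was -1.08 ± 0.26 (SE; adjusted p = 0.0132 by limma). Its adjusted p was 0.0501 without MYCN 1 and 0.0599 in MYC 1 to 4 alone.

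In the supply of glutamine and aspartate 1 of 7 tested genes fell, the mitochondrial aspartate aminotransferase got2a. It measured 25.4, 22.2, 13.2 and 21.0 FPKM in MYCN 1 to 4, and from 6.03 over a median of 10.6 to 15.02 FPKM in MYC, so that 6 of 8 MYC libraries were below all MYCN libraries. MYC minus MYCN on the log2 scale was -0.91 ± 0.26 (SE; adjusted p = 0.0307 by limma), and it was not called without MYCN 1 (adjusted p = 0.102), MYCN 2 (0.0907) or MYCN 4 (0.0901), in either MYC set alone (0.0589 and 0.0967), in the 8 number-sharing libraries without the block (0.0692), or by the exact permutation test (0.0537). Its cytosolic counterpart got1 had a log2 fold change of -0.43 (adjusted p = 0.123 by limma).

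Pteridines are made from GTP and give tetrahydrobiopterin, the cofactor of the tyrosine hydroxylase th. Of 7 tested genes 1 rose, pts, the pyruvoyl-tetrahydropterin synthase. It measured 3.28, 2.16, 1.72 and 2.38 FPKM in MYCN 1 to 4, and from 2.62 over a median of 5.02 to 7.68 FPKM in MYC, with 6 of 8 MYC libraries above all MYCN libraries. The log2 fold change was 0.81 ± 0.25 (SE; adjusted p = 0.0469 by limma), close to the threshold, and it was not called in 17 of 26 other settings and subsets (adjusted p from 0.0231 to 0.123). The GTP cyclohydrolase gch1 was at a log2 difference of 1.33 ± 0.48 (SE; adjusted p = 0.0861 by limma). With the replicate block it was 1.79 and called (adjusted p = 0.00432), as it was in the same 8 libraries unblocked (0.0255), in MYC 1 to 4 in the fit of all libraries (0.0421), with library weights (0.0326) and without MYC 7 (0.0284), but not in MYC 5 to 8 (0.334).

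**Figure D4:**
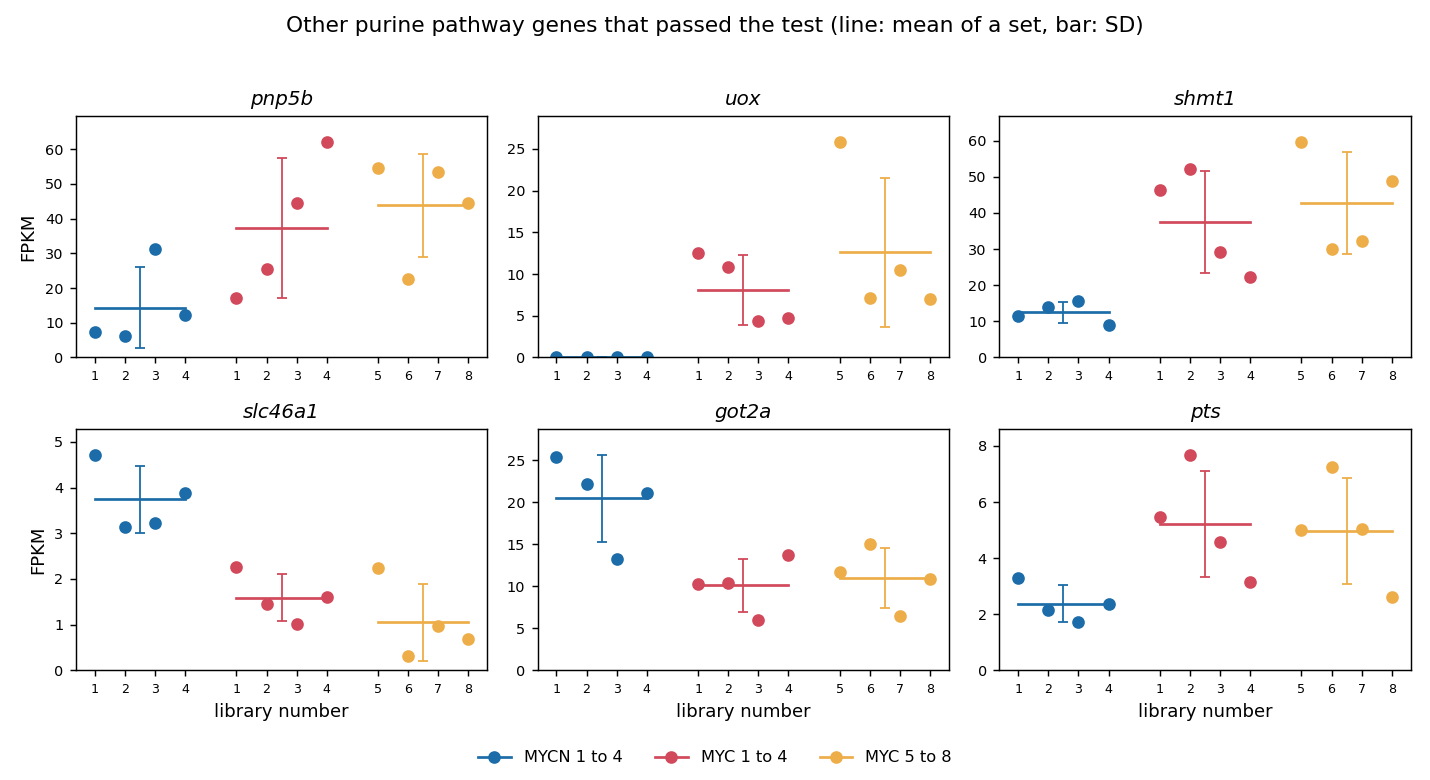
FPKM per library of the 6 other pathway genes that passed the test between MYC and MYCN. Uox, shmt1 and slc46a1 show no overlap between the groups, while pnp5b, got2a and pts do.

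**Figure D5:**
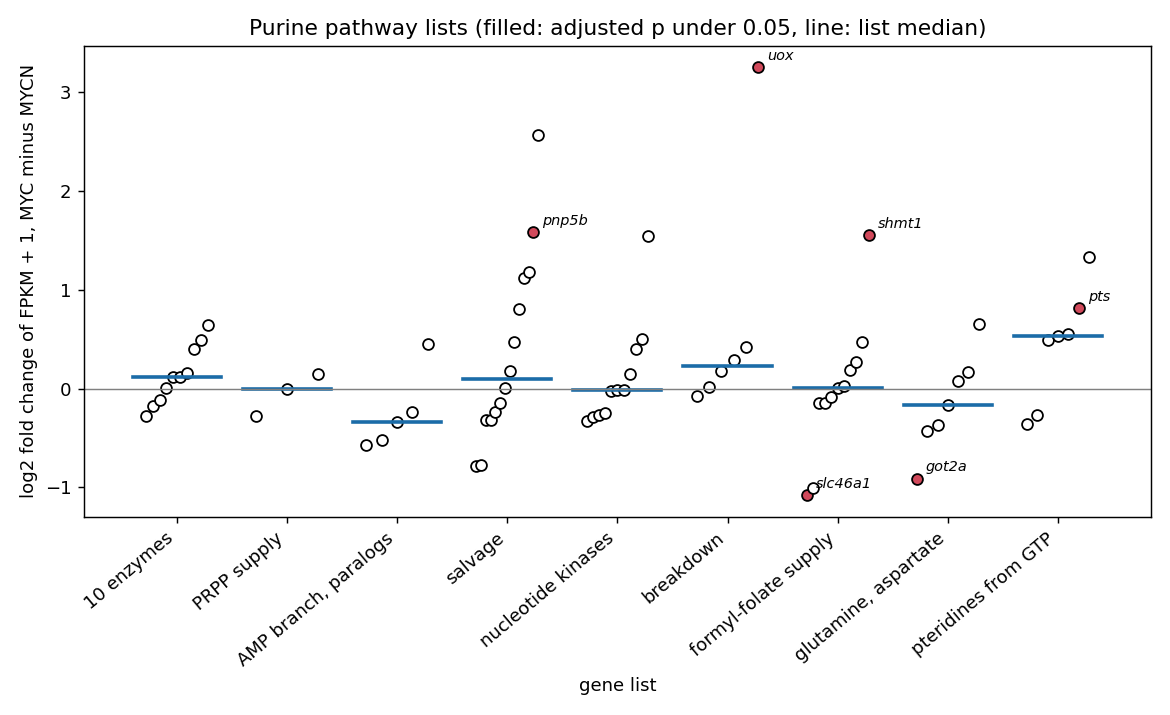
Log2 fold change (MYC minus MYCN) of every tested gene of the 10 enzymes and of the 8 other pathway lists, with the median of each list as a line and filled points for an adjusted p under 0.05. The 10 enzymes lie between -0.27 and 0.65 with none filled, and the filled points of the other lists are the 6 genes pnp5b, uox, shmt1, slc46a1, got2a and pts.

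The labelled cell type was present by its defining markers, with dbh at 1753 to 3237 FPKM in MYCN and 917 to 2632 FPKM in MYC and th at 434 to 859 FPKM and 281 to 807 FPKM. The summed level of the 13 measured sympathoadrenal markers was 5900 to 7863 FPKM in MYCN and 3530 to 5209 FPKM in MYC. The highest of them were dbh and hand2. Of the 12 tested sympathoadrenal markers 5 fell and 0 rose in MYC by limma, where 7.63% and 5.77% of all genes did. By exact permutation 4 were lower (6.25% of all genes). Of the macrophage markers 10 of 18 tested rose, where 5.77% of all genes did. By exact permutation 7 were higher (3.37% of all genes), as were 16 in MYC 1 to 4 and 7 in MYC 5 to 8 by limma (5.28% and 4.51% of all genes); the summed level of the 19 measured was 61.0 to 860.3 FPKM in MYCN, 678 to 2017 FPKM in MYC 1 to 4 and 301 to 439 FPKM in MYC 5 to 8, with cd74a and cd74b the highest and none at 0. Of the leukocyte markers 7 of 8 tested rose, with sums of 23.8 to 85.7 FPKM and 82.8 to 311 FPKM. By exact permutation 2 of the 8 were higher, and by limma 8 in MYC 1 to 4 and 1 in MYC 5 to 8. Between MYC and MYCN most of these markers moved in the same direction as uox, shmt1, pnp5b and pts. From MYC 1 to 4 to MYC 5 to 8 the median log2 difference was -1.19 for macrophage and -1.11 for leukocyte markers. Against MYCN the log2 fold change of uox was 3 in MYC 1 to 4 and 3.51 in MYC 5 to 8. For shmt1 these values were 1.455 and 1.657, for pnp5b 1.43 and 1.74, and for pts 0.85 and 0.78. The part of the marked cells in those results was not tested.

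Replication markers moved the other way: 7 of 14 tested S phase genes fell and 0 rose by limma, where 7.63% and 5.77% of all genes did. By exact permutation 5 were lower (6.25% of all genes). The levels of these genes summed to 374 to 622 FPKM in MYCN and 155 to 290 FPKM in MYC. Among them the helicase subunit mcm4 measured 83.3 ± 23.7 FPKM in MYCN libraries and 18.9 ± 6.03 FPKM in MYC libraries (SD, n = 4 and 8), a log2 fold change of -2.11 (adjusted p = 0.000285 by limma); mcm2 was listed at 0 throughout. Of the mitosis markers 0 of 11 tested passed by limma or by exact permutation, and 0 had an unadjusted p under 0.05 by limma. Their median log2 fold change against MYCN was 0.08 in MYC 1 to 4 and -0.89 in MYC 5 to 8. Between the MYC sets the median was -0.99, lower in MYC 5 to 8. There 0 of 11 passed by limma, and 8 had an unadjusted p under 0.05, all lower, beside 9.14% of all genes in either direction. The part of these differences in the levels of the 10 enzymes was not tested.

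Pigment cells are the cells in which the purine enzymes are known to be used for colour. The summed level of the 7 measured iridophore markers was 1.75 to 5.24 FPKM in MYCN and 1.02 to 7.46 FPKM in MYC, with 5 of 7 under 1 FPKM in every library and tfec listed at 0. The iridophore gene pnp4a measured 2.69 FPKM in MYCN libraries and 3.45 FPKM in MYC libraries, a log2 fold change of 0.18 (adjusted p = 0.790 by limma). The xanthophore marker sum was 201 to 296 FPKM in MYCN and 181 to 610.2 FPKM in MYC, nearly all of it gch2, itself a pathway gene, and bcmo1 was listed at 0. The melanophore markers summed to 47.8 to 110.5 FPKM in MYCN and 71.8 to 97.9 FPKM in MYC. Over the 12 libraries pmela and mitfa had the highest means, mitfa through its MYCN values. Of the 3 tested, 1 fell and the other two had positive values that did not pass, pmela at a log2 fold change of 0.92 (adjusted p = 0.0648 by limma) and trpm1b at 0.51 (adjusted p = 0.333). The gene that fell, the melanophore regulator mitfa, measured 34.5 ± 12.1 FPKM in MYCN libraries and 0.0588 ± 0.0488 FPKM in MYC libraries, a log2 fold change of -5.01 (adjusted p = 9.96e-10 by limma).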

How the data were processed

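The authors deposited 1 table of FPKM per gene for 12 libraries; cutadapt, TopHat2 2.0.11 and Cufflinks 2.2.1 are named per the submitters' processing notes. The sources used here did not give the genome build or annotation, so no coordinates are printed. FPKM keeps no read count: depth per library is unknown, there is no counting interval, and the spread between libraries sets the precision. An exact 0 can be a failed estimate, and 705 genes were at 0 in all libraries.

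The genes that reached 1 FPKM in 4 or more of the 12 libraries (9606, all 10 enzymes among them) were fitted as log2(FPKM + 1) with limma 3.58.1 in R 4.3.3 (eBayes with trend), as the difference MYC minus MYCN (two-sided, Benjamini-Hochberg over all genes tested, threshold 0.05). "Rose" and "fell" mean higher or lower in MYC past that threshold. MYC 1 to 4, MYC 5 to 8 and MYCN were also fitted with a mean each. Single ratios were tested by exact permutation over 495 splits, and pairs of enzymes with 100000 resamples. The fit was also run on simulated data with normal noise, whose outcome is not given here and on which no result rests.

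Named were the 10 enzymes, every other pathway gene past the threshold, the 2 genes of smallest p per list, the 3 genes most correlated with each enzyme (provisional symbols left out), and mitfa, pnp4a and mcm4. For some marker lists the 2 genes with the highest mean were named as well. A few genes, such as prps1a, prpsap1, th, trpm1b and mcm2, were named outside these rules. The enzymes, lists and tests were chosen with earlier results of these data known. Deviations from the group means of same-numbered MYCN and MYC libraries correlated at 0.249, 0.379, 0.534 and 0.148 for numbers 1 to 4. Each exceeded 0.1, so a fit with the numbers as a block was added as an alternative. The main fit and the exact permutation test did not use the numbers. No correlation was computed between libraries of different numbers, so these values do not show what a shared number stands for. The labels do not say it either. Alternatives changed the pseudocount (0.1 or 0.5), filter, scaling, weights, trend, test and libraries.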

Additional observations from a re-analysis of the deposited data

Results flagged for a closer look

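Among 52 sets of 4 or 8 values of the named enzymes and pathway genes, 3 held a library that lay far from the others by Dixon's test, which by chance marks about 1 in 20 such sets. The IMP-forming enzyme atic was at 240.7 FPKM in MYC 5, beside 169.9 FPKM in the next highest MYC library. The urate oxidase uox was at 25.83 FPKM in MYC 5, beside 12.53 FPKM in the next. The cytosolic aspartate aminotransferase got1 was at 33.05 FPKM in MYC 7, beside 25.57 FPKM in the next.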

How the results depend on the processing

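The count of the 10 enzymes called higher was 1 with library weights (adsl), 1 with the replicate block (impdh2), 0 to 1 when 1 library was left out (adsl without MYCN 3, impdh2 without MYC 6), and 0 in the other settings run. Of the other pathway genes, the count called higher was 8 with median-ratio scaling, 2 with a common sum, 7 with quantile normalisation, 9 with library weights, 8 with the replicate block, 2 by exact permutation and 2 to 8 without 1 library. The count called lower was 1 with a filter of 5 FPKM, 4 with library weights, 6 with the block, 1 in MYC 1 to 4 alone, 1 by exact permutation and 0 to 3 without 1 library. Of all genes 10.2% were called higher and 13.3% lower with the block, and 3.37% and 6.25% by exact permutation. For the scalings, weights, filter and subsets without 1 library the share of all genes was not counted. Changes of these counts therefore cannot be read as particular to the enzymes or pathway genes.

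No fold change that changed sign passed the test in any setting. The common sum moved the median of all genes from -0.05 to -0.22 and that of the 10 enzymes from 0.12 to -0.06; it gave ppat -0.025, pfas -0.060, impdh1b -0.068, hprt1 -0.18 and prpsap2 -0.042. Quantile normalisation gave hprt1 -0.087. With MYC 1 to 4 as the only MYC libraries (with the block, without it, or in the fit of all 12), ppat was at -0.013, gart at 0.32, pfas at -0.14, impdh1b at -0.070 and hprt1 at -0.33. Without 1 library, MYC minus MYCN ran from -0.32 to 0.044 for gart, -0.20 to 0.25 for hprt1, -0.029 to 0.27 for impdh1b, -0.0059 to 0.23 for pfas and -0.068 to 0.29 for prpsap2. MYC 5 to 8 minus MYC 1 to 4 then ran from -0.097 to 0.050 for adsl, -0.035 to 0.25 for gmps, -0.0054 to 0.31 for paics and -0.35 to 0.038 for impdh2. The causes were not tested. Depth is unknown, and with 4 MYCN libraries the 95% intervals of the 10 enzymes allow differences of up to the bounds given.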
